A study of Mus musculus with 6 samples.

Results

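The annexins are a family of calcium-dependent membrane proteins, and 9 of the 10 family genes looked for (Anxa1 to Anxa9 and Anxa11) were measured in mouse kidney. Genes were chosen by family name through array probes annotated with exactly 1 gene symbol, among 18048 genes with such a probe. Where a gene had more than 1 probe, the probe with the highest mean intensity over the 6 arrays stood for it. That choice mattered for Anxa5 alone, which had a bright probe (mean 35.2 times the array median) and a dim one (mean 0.442). No probe carried Anxa9 as its only symbol, and Anxa9 and Anxa10 were not analysed here. All 9 genes passed the filter on low values and entered the test.

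Wild-type and homozygous mutant mouse kidney (WT and KO in the sample titles) were compared with 3 samples of each, every sample a portion of a kidney on 1 CodeLink single-colour array. The tissue had been perfused with phosphate-buffered saline and frozen, and the RNA was labelled with biotin. The labels used here name no mutated gene, strain, age or sex, so no targeted transcript could be checked. They do not state that the samples of a genotype came from separate animals either, so p-values measure the spread between these samples, which may be partly technical. Intensities are given as multiples of the median intensity of the same array, or as log2 of that multiple. Between 37.6% and 41.7% of the values on an array lay above a low-signal limit of 1.51 times the array median (0.60 in log2), which was set from the spread of the dimmest values after they had been seen.

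Annexins share a core of repeated helical domains that docks onto negatively charged phospholipids when calcium binds, and each has its own N-terminal tail that recruits partners such as S100 proteins. They act in membrane repair, vesicle traffic and the organisation of the cell cortex, and some act outside the cell, where Anxa1 dampens inflammation, Anxa2 gathers plasminogen activators and Anxa5 covers exposed phosphatidylserine. In kidney, annexins are found in tubule epithelium, endothelium, interstitial cells and leukocytes.

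Of the 9 annexins measured, 4 were higher in mutant kidney (Anxa1, Anxa2, Anxa3 and Anxa6) and 0 were lower (limma, Benjamini-Hochberg adjusted p under 0.05 over all 25834 probes tested). At an unadjusted p under 0.05 the limma counts were 5 and 0, where 2156 of all 14817 genes tested were higher. Fold changes of the 4 ran from 3.60 for Anxa1 to 1.82 for Anxa6. Over all 14817 genes tested, 5.67% were higher and 1.59% were lower by the same rule, and among the 9027 genes above the low-signal limit in both genotypes 7.26% were higher and 2.51% lower. Counted over probes, 4.11% were higher and 1.27% lower. The difference was positive for all 9 annexins, against 57.5% of all genes. The median annexin differed by 0.84 log2 units, against 0.08 over all genes. Because the family was taken up with results of these data known, these counts describe it and do not stand as an independent test.

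**Figure D1:**
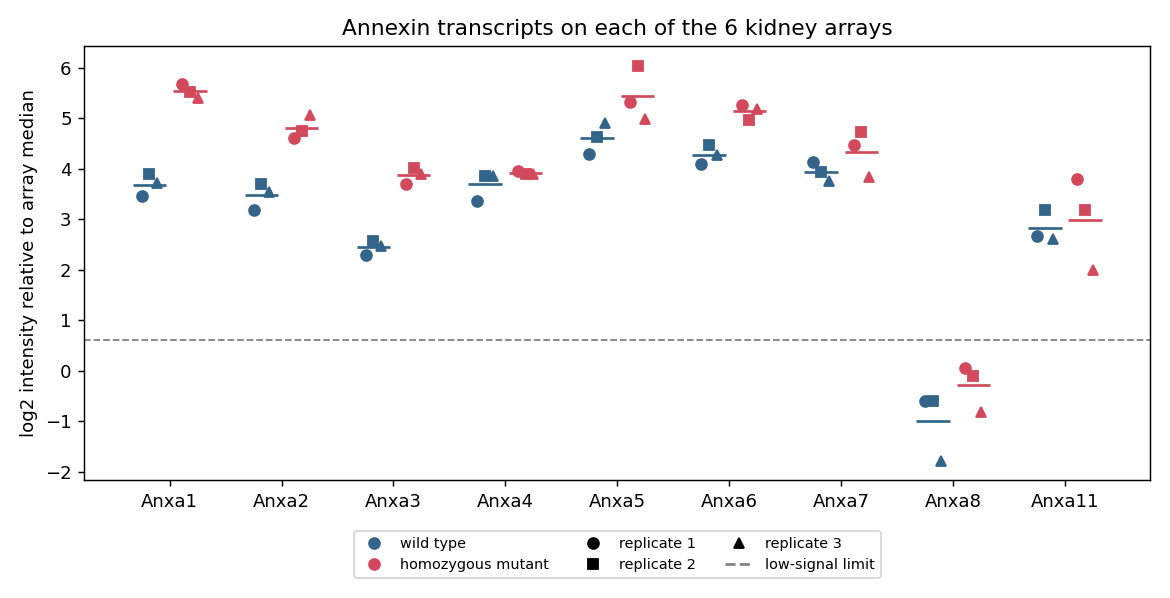
Log2 intensity relative to the array median (vertical axis) of each annexin on the 3 wild-type and 3 mutant arrays, with a symbol per replicate, a bar at the group mean and a dashed line at the low-signal limit of 0.60. Anxa1, Anxa2, Anxa3 and Anxa6 show mutant points clear of the wild-type points, Anxa7 and Anxa11 overlap, and Anxa8 lies under the limit on every array.

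The arrays of replicate 1 stood apart in sex-linked transcripts in both genotypes. The brighter Xist probe read 4.64 in wild-type and 7.98 in mutant replicate 1 and at most 0.862 on the other arrays, and Eif2s3y, a Y-linked gene, read at most 0.162 in replicate 1 and at least 8.05 elsewhere. Each genotype held 1 such array, the pattern of a female sample beside male ones. The samples of a genotype therefore did not all come from 1 animal, though replicates 2 and 3 may have. Differences are therefore also given within replicate 1 (mutant over wild type, no test) and over replicates 2 and 3 only, where the share of genes higher was 3.67%.

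The promoter windows of Anxa1 and Anxa2, the only called members with a window in the RefSeq table (GRCm38.p6), are shown with that of Anxa11, which was not called, so that the start-site sequences can be set side by side. Each is the 250 bases before the annotated transcription start on the gene's own strand. Capitals mark the TATA box letters TATAAA and the AP-1 letters TGANTCA, both searched on both strands.
Anxa1 (chr19:20390672-20390921, minus strand): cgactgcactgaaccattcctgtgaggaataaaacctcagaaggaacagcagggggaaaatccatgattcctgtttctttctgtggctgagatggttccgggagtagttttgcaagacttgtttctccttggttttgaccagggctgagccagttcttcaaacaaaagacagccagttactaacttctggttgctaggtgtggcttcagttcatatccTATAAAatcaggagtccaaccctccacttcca
Anxa2 (chr9:69453433-69453682, plus strand): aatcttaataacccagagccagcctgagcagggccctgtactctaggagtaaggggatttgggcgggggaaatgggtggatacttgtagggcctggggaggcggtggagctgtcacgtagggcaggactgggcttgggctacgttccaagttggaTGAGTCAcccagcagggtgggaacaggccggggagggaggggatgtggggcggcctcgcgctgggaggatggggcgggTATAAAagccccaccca
Anxa11 (chr14:25841905-25842154, plus strand): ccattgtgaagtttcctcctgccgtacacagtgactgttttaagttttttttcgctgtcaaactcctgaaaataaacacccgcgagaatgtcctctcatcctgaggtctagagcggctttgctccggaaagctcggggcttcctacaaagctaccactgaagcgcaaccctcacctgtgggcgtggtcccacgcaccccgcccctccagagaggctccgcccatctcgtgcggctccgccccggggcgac
Both windows of the called members held TATAAA, at bases -32 to -27 before the start in Anxa1 and at -17 to -12 in Anxa2, while the Anxa11 window and the windows of Anxa4, Anxa5, Anxa7, Anxa8 and Anxa9 did not. Of all 32851 windows of that length in the table, 12.4% held TATAAA on either strand. TGANTCA occurred once among the annexin windows, in Anxa2 at -95 to -89, against 6.75% of all windows. The GC box letters GGGCGG were found 3 times each in Anxa2 and Anxa11, 4 times in 1 Anxa7 window and once in the other, which overlaps it, and in no other annexin window, Anxa1 included. Of all windows 32.7% of all windows held them. CCAAT occurred in none of the annexin windows, against 33.8% of all. The Anxa1 window was 46.0% G or C with 2 CpG pairs, that of Anxa2 62.4% with 9 and that of Anxa11 58.0% with 17, against medians of 52.4% and 6 over all windows. The RefSeq table held no window for Anxa3 or Anxa6. Whether any of these motifs goes with the differences between genotypes was not tested.

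Anxa1 encodes the annexin that is released by leukocytes and epithelia and restrains neutrophil entry. Its intensity was 10.9, 14.8 and 13.1 times the array median in wild-type replicates 1 to 3 and 51.2, 45.7 and 42.3 in mutant replicates 1 to 3. Every mutant array was well above every wild-type array, with a gap of 1.52 log2 units between the nearest pair. The group means were 3.68 ± 0.22 and 5.53 ± 0.14 log2 (SD, n = 3 each), a difference of 1.85 ± 0.15 (SE) or 3.60-fold, with a limma adjusted p of 6.2e-06. Of all probes tested, 0.898% had a higher difference. Anxa1 was 4.69-fold higher within replicate 1 and 3.16-fold over replicates 2 and 3 (limma, adjusted p = 0.00018).

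Anxa2 encodes the annexin that pairs with S100a10 at the plasma membrane and binds plasminogen and its activator at the cell surface. It read 9.09, 13.0 and 11.6 in wild-type and 24.2, 26.8 and 33.2 in mutant replicates 1 to 3. The groups lay apart, with the lowest mutant array 0.90 log2 units above the highest wild-type array. The rise was 1.32 ± 0.17 log2 units, or 2.50-fold (limma, adjusted p = 0.00026). It was 2.66-fold within replicate 1 and 2.43-fold over replicates 2 and 3 (limma, adjusted p = 0.0014). With no intensity trend in the variance, a setting in which 0.965% of genes were higher, Anxa2 did not pass (limma, adjusted p = 0.0726).

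Anxa5 encodes the phosphatidylserine-binding annexin used in the laboratory to stain dying cells. The wild-type values were 19.5, 24.6 and 30.0 and the mutant values 39.9, 65.7 and 31.5. The groups did not overlap, but mutant replicate 3 lay only 0.07 log2 units above wild-type replicate 3, and mutant replicate 2 was 2.08 times as bright as mutant replicate 3. The difference of 0.84 ± 0.23 log2 units, or 1.79-fold (95% interval 1.27 to 2.53), missed the threshold (limma, adjusted p = 0.0510). Without mutant replicate 3 it was 1.07 and passed (limma, adjusted p = 0.0220), and without mutant replicate 2 it was 0.54 and did not (limma, adjusted p = 0.214). It also passed with no filter on dim probes (limma, adjusted p = 0.0280). The dim Anxa5 probe stayed below the low-signal limit on all arrays, was at or below 0 on mutant replicate 1, where the fit left it out, and gives no fold. Averaging both probes gave an Anxa5 difference of 0.12, but on 3 wild-type and 2 mutant arrays only. Mutant replicate 1 dropped out with its missing dim value, and the dim probe weighed as much as the bright one.

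Anxa3 and Anxa6 made up the other called members. Anxa3, an annexin of leukocytes and of some epithelia, read 4.86, 5.92 and 5.55 in wild-type and 13.0, 16.1 and 14.9 in mutant replicates 1 to 3. Its group means of 2.44 ± 0.14 and 3.87 ± 0.15 log2 (SD, n = 3 each) differed by 1.43 ± 0.16, or 2.69-fold (limma, adjusted p = 8.2e-05). The fold was nearly equal within replicate 1 (2.68) and over replicates 2 and 3 (2.70). Anxa3 and Anxa1 passed in all 20 alternative settings tried.

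Anxa6, the annexin with a duplicated core, bridges membranes and takes part in endocytosis and cholesterol handling. Its wild-type values were 17.0, 22.2 and 19.3 and its mutant values 38.5, 31.2 and 36.4. The groups lay 0.49 log2 units apart at their nearest. The rise of 0.86 ± 0.14 log2 units, or 1.82-fold, was the smallest of those that passed (limma, adjusted p = 0.0027). It was 2.26-fold within replicate 1 and 1.63-fold over replicates 2 and 3, where it still passed (limma, adjusted p = 0.0260). With no intensity trend in the variance Anxa6 did not pass (limma, adjusted p = 0.133).

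**Figure D2:**
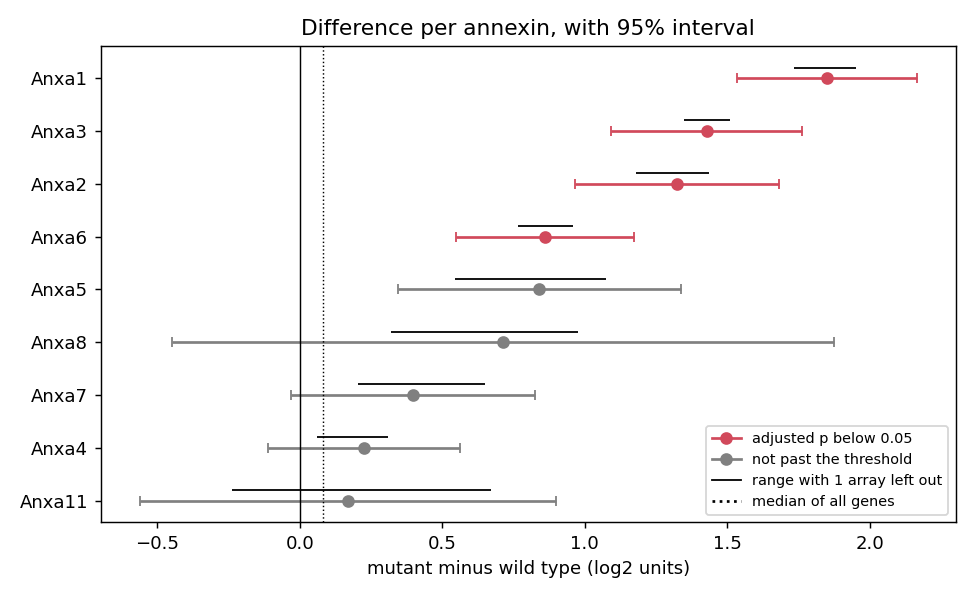
Mutant minus wild-type difference in log2 units (horizontal axis) for each annexin, with the 95% interval of the limma fit, a thin line for the range over the 6 fits that each lack 1 array, and a dotted line at the median of all genes (0.08). The intervals of Anxa1, Anxa3, Anxa2 and Anxa6 begin at 1.53, 1.09, 0.97 and 0.55, and of the thin lines that of Anxa11 alone crosses 0.

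Anxa4, Anxa7 and Anxa11, which are linked to vesicle fusion and secretion, did not pass. Anxa4, an annexin of polarised epithelium, read 10.3, 14.5 and 14.5 in wild-type and 15.5, 14.9 and 14.9 in mutant replicates 1 to 3. The mutant arrays were nearly alike (SD 0.03 log2), and the lowest of them exceeded the highest wild-type array by 0.04 log2 units. The difference of 0.22 ± 0.16 corresponds to 1.17-fold, with a 95% interval of 0.925 to 1.48 (limma, adjusted p = 0.534). Over replicates 2 and 3 it was 1.03-fold and within replicate 1 it was 1.51-fold, since wild-type replicate 1 was the low array.

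Anxa7, also called synexin, promotes membrane fusion. It read 17.6, 15.2 and 13.5 in wild-type and 22.0, 26.3 and 14.2 in mutant replicates 1 to 3, so that mutant replicate 3 fell among the wild-type values. Its difference of 0.40 ± 0.20 log2 units, or 1.32-fold (95% interval 0.978 to 1.77), did not pass (limma, adjusted p = 0.345). Without mutant replicate 3 the difference was 0.65, the nearest of any setting to the threshold (limma, adjusted p = 0.0535), and without mutant replicate 2 it was 0.20 (limma, adjusted p = 0.745).

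Anxa11, whose long tail binds S100a6 and the calcium sensor Pdcd6, was the member with the widest spread among mutants. Wild-type values were 6.37, 9.07 and 6.09, and mutant values were 14.0, 9.03 and 3.96. The highest mutant array was thus 3.52 times the lowest, and the lowest of all 6 arrays was a mutant. The difference was 0.17 ± 0.34 log2 units (95% interval of the fold 0.677 to 1.87; limma, adjusted p = 0.865). It changed sign to -0.24 without mutant replicate 1 and to -0.31 over replicates 2 and 3, while within replicate 1 the mutant was 2.19-fold higher.

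Anxa8 gave no usable level. It read 0.656, 0.660 and 0.290 in wild-type and 1.04, 0.932 and 0.570 in mutant replicates 1 to 3, all below the low-signal limit, so no fold is given. Anxa13, an annexin of intestinal and renal epithelium that was outside the gene set, was likewise at or below 1.56 on all arrays, with 1 wild-type array just above the limit, and did not pass (limma, adjusted p = 0.589).

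**Figure D3:**
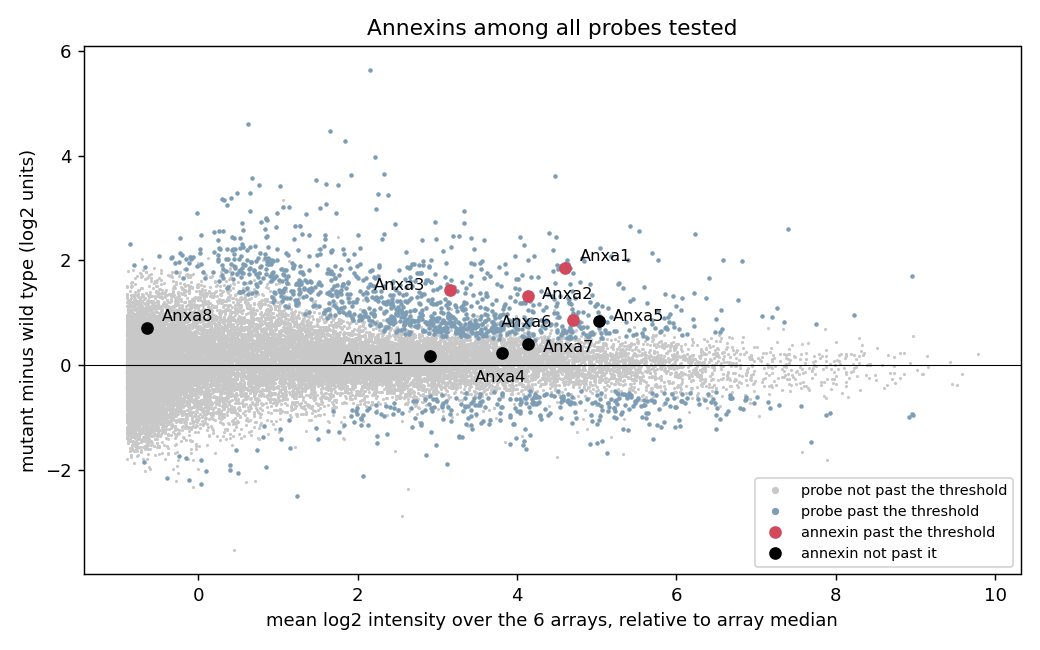
Difference between genotypes (vertical axis, log2 units) against mean log2 intensity over the 6 arrays (horizontal axis) for the 25834 probes tested, with the annexins marked. Anxa1, Anxa2, Anxa3 and Anxa6 lie in the upper cloud of called probes, Anxa5 lies beside called probes of like intensity, and Anxa8 lies in the broad low-signal scatter.

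Across the family the groups were fully apart, with mutants higher, for 6 of 9 annexins (the 4 called members, Anxa4 and Anxa5). Among 13470 genes with a value on every array, 17.8% were apart in that direction and 8.89% in the other. The spread among mutants differed by member. It was 0.14 to 0.23 log2 (SD, n = 3) in Anxa1, Anxa2, Anxa3 and Anxa6. In Anxa4, which was not called, it was 0.03, and in Anxa5, Anxa7, Anxa8 and Anxa11 it was 0.46 to 0.92. A call depends on the spread, so the small spread of the called members is partly built in. Mutant replicate 3 was the lowest mutant array in Anxa5, Anxa7 and Anxa11, but also in Anxa1, Anxa4 and Anxa8.

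The nearest protein-coding genes on either side of each annexin were also examined. Of these 18 neighbours 14 were tested, and 1 was higher and 0 were lower (limma), against 5.67% and 1.59% of all genes, so the count is near the background. At Anxa1, Aldh1a1, a retinal dehydrogenase, differed by 1.22 ± 0.38 without passing (limma, adjusted p = 0.0943). The neighbour that rose was Zcchc24, beside Anxa11, with 1.45 ± 0.15 log2 units (limma, adjusted p = 6.1e-05), next to an annexin that did not pass.

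By pattern over the 6 arrays, the genes most like Anxa1 among the 15466 compared were Col1a1 (Pearson r = 0.9995), a chain of type I collagen, Ighm (0.998), the heavy chain of IgM, and Draxin (0.998), a secreted axon guidance protein. Those most like Anxa2 were Il1rn (0.997), the interleukin-1 receptor antagonist, Grn (0.996), the granulin precursor, and Smarca4 (0.995), a chromatin remodeller. These correlations follow mainly from 2 groups of 3 arrays and are a description of 6 points. Col1a1 rose by 2.23 ± 0.21 log2 units (limma, adjusted p = 2.6e-05). Il1rn did not pass (limma, adjusted p = 0.230) and lay under the low-signal limit on all arrays but mutant replicate 3, so no fold is given.

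Over 8 lists of annexin partners, of related lipid-binding proteins and of genes linked to annexin functions, 16 of 79 tested genes (20.3%) were higher and 0 were lower (limma), against 5.67% and 1.59% of all genes. The 16 came from 6 of the lists. The lists were chosen with earlier results of these data known, so these counts describe them and are not an independent test. The list medians, in the order in which the lists follow, were 0.96, 0.21, 0.13, 0.61, -0.04, 0.53, 0.06 and 0.17 log2 units, against 0.08 over all genes. Of the 6 S100 partners, 4 were higher. S100a6, a partner of Anxa11 and Anxa2, read 40.6, 44.9 and 61.0 in wild-type and 203.8, 182.5 and 191.3 in mutant replicates 1 to 3, a 4.0-fold rise (limma, adjusted p = 1.1e-05). S100a11, the partner of Anxa1, rose 2.07-fold (limma, adjusted p = 0.0013) and S100a4 2.82-fold (limma, adjusted p = 0.00018). S100a10, the partner of Anxa2, rose 1.83-fold on 3 wild-type and 2 mutant arrays (limma, adjusted p = 0.0173), but not without wild-type replicate 3 (0.0772) or after quantile normalization (0.0545).

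Of 12 membrane repair and scaffold partners, 1 was higher and 0 were lower. Myof, myoferlin, which patches damaged membranes, rose by 1.02 ± 0.23 (limma, adjusted p = 0.0203) and was lost without wild-type replicate 2, mutant replicate 2 or mutant replicate 3 (at most 0.135). Capn2, a calcium-activated protease, differed by 0.50 ± 0.14 without passing (limma, adjusted p = 0.0510), and Ahnak and Pdcd6ip lay under the low-signal limit in both genotypes. Of the Anxa1 receptor family, the formyl peptide receptors, 2 of 7 genes were tested and 0 passed (limma, also 0 at an unadjusted p under 0.05). Those were Fpr-rs4, which differed by 0.66 ± 0.35, and Fpr-rs6, which was under the limit. Fpr1 had no probe with its symbol alone and Fpr2 had a probe that was not tested, so nothing can be said of either receptor. Of 4 tested genes of plasminogen activation 0 passed (limma, 2 at an unadjusted p under 0.05). Plaur, the urokinase receptor, was below the limit on the 3 wild-type arrays and above it on the 3 mutant arrays, at least 1.59-fold higher (limma, adjusted p = 0.0533). Plat, the tissue activator that binds Anxa2, was below the limit on the 3 wild-type arrays and above it on 2 mutant arrays. Mutant replicate 3 fell among the wild-type values of Plat, so the groups overlapped and no fold is given. Plat did not pass (limma, adjusted p = 0.271). The plasminogen receptor Plgrkt differed by 0.33 ± 0.23 and Plau lay under the limit.

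In the phospholipase A2 and eicosanoid list 2 of 8 genes were higher. Alox5ap, which feeds leukotriene synthesis, rose by 2.50 ± 0.40 (limma, adjusted p = 0.0017), though not with robust variance (0.0758). Pla2g4a, the cytosolic phospholipase, rose by 0.75 ± 0.18 on 2 wild-type and 3 mutant arrays (limma, adjusted p = 0.0265) and was lost without any 1 of the mutant arrays (at most 0.126). Ltc4s differed by 0.75 ± 0.21 and Pla2g5 by -0.52 ± 0.27, without passing.

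Of 13 genes for phosphatidylserine exposure and uptake, 4 were higher. The scavenger receptor Stab1 rose by 1.23 ± 0.14 (limma, adjusted p = 0.00013) and Pros1, a bridging ligand, by 1.75 ± 0.25 (limma, adjusted p = 0.00084). Axl, the receptor tyrosine kinase that Pros1 relatives bind, was at least 1.70-fold higher with wild-type arrays below the limit (limma, adjusted p = 0.0285). It held in only 1 of the 6 fits lacking 1 array, that without wild-type replicate 2 (limma, at most 0.139 in the others). Mfge8, which tethers dying cells, rose by 0.80 ± 0.21 (limma, adjusted p = 0.0357) and was lost without replicate 2 or 3 of either genotype (at most 0.161) and after quantile normalization (0.0910) or cyclic loess (0.0981).

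Other calcium-dependent phospholipid-binding proteins had 4 of 24 higher and a median difference of 0.06, with 16 below the limit in both genotypes. Esyt1, which tethers the endoplasmic reticulum to the plasma membrane, rose by 1.19 ± 0.19 (limma, adjusted p = 0.0017), and the copines Cpne7, Cpne2 and Cpne8 by 1.53 ± 0.27, 0.57 ± 0.13 and 1.08 ± 0.27 (limma, adjusted p = 0.0036, 0.0171 and 0.0296). Cpne2 was lost without wild-type replicate 3 or mutant replicate 2 or 3 (limma, at most 0.0717), and Cpne8 in every such fit but the one lacking wild-type replicate 3 (limma, at most 0.113). Of 10 genes induced by glucocorticoids, as Anxa1 is known to be, 1 was higher. That was Nfkbia, the inhibitor of NF-kappa B, with 0.65 ± 0.14 (limma, adjusted p = 0.0132; 0.0833 without mutant replicate 2). Tsc22d3 differed by 0.44 ± 0.20 and Cebpd by 0.60 ± 0.22, without passing. Per1, a clock gene, lay below the limit on the 3 mutant arrays and also did not pass (limma, adjusted p = 0.517). Of these 16 genes, 8 passed in each of the 6 fits lacking 1 array, and 2 (S100a6 and Pros1) passed with no intensity trend in the variance.

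**Figure D4:**
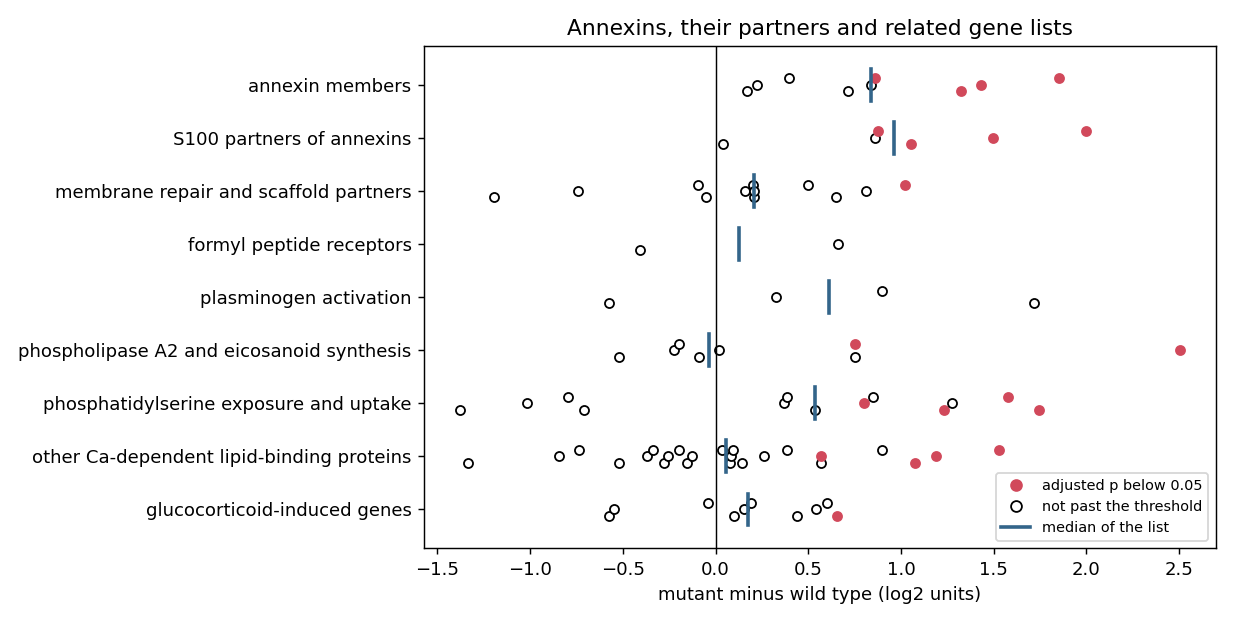
Mutant minus wild-type difference (horizontal axis, log2 units) of each tested gene, by list, with filled points past the threshold and a bar at the list's median. The S100 partners have 4 of 6 members past the threshold and a median of 0.96, while the calcium-dependent lipid-binding proteins outside the family centre at 0.06.

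Markers of the cells that a piece of kidney can hold moved beside the annexins, and their part in the annexin differences was not tested. In whole tissue, fewer cells of a type and less RNA per cell cannot be told apart. The marker counts stand beside 5.67% of all genes higher and 1.59% lower (limma). Of 12 fibroblast, pericyte and smooth muscle markers all 12 were higher, led by Tagln (1.76 ± 0.14) and Dcn (1.93 ± 0.18). Their summed intensity was 146.1 to 180.3 in wild type and 502.3 to 528.3 in mutants. Here and below, a sum takes in every gene of the list with a probe, tested or not, so bright genes weigh most. Of 12 tested macrophage and monocyte markers 6 were higher, led by Cd14 (2.42 ± 0.17) and C1qa (2.26 ± 0.16), with sums of 30.9 to 36.3 and 128.0 to 179.9. The defining markers Adgre1, Itgam and Ccr2 lay under the limit in both genotypes. Of 6 injured tubule markers 5 were higher, led by Havcr1, which was at least 20.8-fold higher with every wild-type array under the limit, and Krt20, which read 0.446, 0.754 and 1.58 in wild-type and 17.3, 14.3 and 15.9 in mutant replicates 1 to 3, with sums of 46.9 to 65.5 and 210.9 to 233.3. Without WT2, WT3, KO2 or KO3 the smooth muscle actin Acta2 lost its call (limma, adjusted p at most 0.0766), as did Krt19 of the injury list in 5 of the 6 fits lacking 1 array, that without WT2 excepted (at most 0.167).

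Of 9 neutrophil markers 0 passed (limma, 1 at an unadjusted p under 0.05), with sums of 7.77 to 10.4 and 10.7 to 12.4, and Elane, Mmp8, Mmp9 and Cxcr2 were under the limit in both genotypes. Of 10 T, B and NK lymphocyte markers 1 was higher, Cd3d, with sums of 14.2 to 17.2 and 21.0 to 35.9. Of 7 endothelial markers 1 was higher, Tie1, with sums of 63.9 to 76.5 and 82.0 to 101.0. Of 13 proximal tubule markers 7 were lower, led by Slc22a8 (-1.48 ± 0.24) and Gatm (-1.44 ± 0.25). The sums were 1161 to 1300 in wild type and 622.9 to 685.9 in mutants. Miox was the largest part of them, with 643.6, 737.7 and 662.3 in wild-type and 375.2, 307.9 and 348.8 in mutant replicates 1 to 3. In the thick ascending limb and distal tubule list 1 of 7 was lower, Pvalb, with sums of 475.0 to 616.6 and 532.3 to 650.0. Of 11 collecting duct markers 0 passed (limma, 0 at an unadjusted p under 0.05), with sums of 88.4 to 98.5 and 99.1 to 111.6. Urothelial markers had 1 of 6 higher, Krt5, with sums of 16.0 to 20.5 and 18.1 to 22.0, and podocyte markers 1 of 5 higher, Cdkn1c, with sums of 35.9 to 39.0 and 38.9 to 46.3. Over all genes 5.67% were higher and 1.59% lower (limma), so 1 call in a short list is not read as a result about that cell type. With single arrays left out, Cd3d lost its call when WT2, WT3, KO1 or KO3 was dropped (limma, adjusted p at most 0.134) and Tie1 when WT1, WT3, KO1 or KO2 was dropped (at most 0.142). Krt5 lost it when WT3, KO1 or KO3 was dropped (at most 0.0985), and Cdkn1c in all 6 such fits (at most 0.139). Among the proximal tubule calls Cubn and Slc34a1 were lost when WT3 or KO2 was dropped (limma, at most 0.0709 and 0.0560), and Miox when WT3, KO2 or KO3 was dropped (at most 0.118).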

How the data were processed

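Kidney RNA of 6 samples, 3 per genotype, was measured on single-colour arrays. The authors deposited 1 intensity per probe on a linear scale. The values themselves show background subtraction (2.66% to 3.46% of an array's values were 0 or negative) and scaling to an array-wide level (medians 0.994 to 0.997). Scanner software was not named in the labels.

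Each array was divided by its median, values at or below 0 were set missing, values under the 10th percentile of positive values (0.290) were raised to it, and log2 was taken. Of 34937 probes, 34445 had a value on at least 2 arrays per genotype, and 25834 remained after the dimmest 25% were left out. In the platform annotation 21590 probes had 1 symbol and were named, 681 had several and 12666 had none. Of these, 21462 matched the RefSeq gene table (GRCm38.p6) and 0 symbols changed.

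Genotypes were compared in limma 3.58.1 (R 4.3.3), two-sided and without a replicate block, with variances moderated along an intensity trend (lmFit, eBayes). P-values were adjusted over all probes by Benjamini-Hochberg, with a threshold of 0.05. The fit was tested on simulated data. The low-signal limit is the mode of the values (0.523) plus 3 times the spread below it (0.330). Where a group lay below the limit, the fold is "at least" the brighter mean over the limit. It is given only if no array of the dimmer group exceeded the limit and the groups did not overlap. Errors are SDs of groups or SEs of differences, and the number of arrays limits precision. Named genes were every annexin probe, up to 4 genes per list of partners and related genes and 2 per marker list by smallest p, and the 3 genes most like Anxa1 and Anxa2. Annexin neighbours, the promoter motifs and the markers named as below the limit or as lost without 1 array were chosen after the values had been seen. The family and all lists were chosen with earlier results of these data known. Alternatives covered scaling, low values, filters, variance models, array weights, a replicate block, replicates 2 and 3 only, and leaving out each array.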

Additional observations from a re-analysis of the deposited data

How the results depend on the processing

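The annexin counts of 4 higher and 0 lower held in most settings. The number higher was 2 with no intensity trend in the variance (Anxa1 and Anxa3), 4 to 5 with each array left out in turn, and 5 with no filter on dim probes. Over all alternatives the difference stayed between 1.66 and 1.95 for Anxa1, 1.18 and 1.44 for Anxa2, 1.30 and 1.51 for Anxa3, and 0.70 and 0.96 for Anxa6. The reversals, all of a difference that was never called, were Anxa11 at -0.31 with only replicates 2 and 3 and -0.24 without mutant replicate 1 (0.67 without mutant replicate 3).

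Probes higher numbered 1063 and probes lower 329. Quantile normalization gave 551 lower and cyclic loess 554, and the share of calls that were higher went from 76.4% to 61.5% and 62.9%. With no intensity trend 179 were higher and 12 lower, genes of the 8 partner and related lists higher numbered 2 instead of 16, and marker genes 14 higher instead of 27 and 0 lower instead of 8. With only replicates 2 and 3, 634 probes and 10 of these list genes were higher. With arrays left out in turn, probes higher ranged from 588 to 1026 and lower from 154 to 325, list genes higher from 8 to 14 and marker genes lower from 4 to 8. The cause of these shifts was not tested. The fits that left out arrays also had fewer of them.

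The labels do not pair samples that share a replicate number. Deviations from the group mean correlated weakly between such samples (0.07, 0.02 and 0.07), though above every pair of unlike number (-0.07 to 0.003). Deviations cancel out within a genotype, so positive values for like numbers push those for unlike numbers down, and the contrast is partly built in. Replicate 1 of both genotypes also shared the sex-linked pattern. Whether samples of the same number belong together was not tested. With the replicate block, 1368 probes were higher and 489 lower, 22 list genes were higher and 1 lower, and Anxa5 was called in addition (limma, adjusted p = 0.0137).

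Signal near the low-signal limit restricts what can be said of Anxa8, Anxa13 and most formyl peptide receptor and plasminogen genes.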
